A study of Mus musculus with 14 samples.

Results

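The 43 genes examined here encode the proteins that license origins of DNA replication and run the replication fork: the origin recognition complex, its loading factors and geminin, the MCM2-7 helicase, the factors that activate it, the replicative polymerases, the sliding clamp and its loader, the single-strand binding protein RPA, and the enzymes that join Okazaki fragments. They were taken by name and not by a cut on measured values, though earlier results of these data were known when they were chosen. All 43 were listed among the 55421 genes of set 1 and the 17490 genes of set 2. The RNA came from tumor organoids of the mouse small intestine, named APT in labels that do not spell out the alleles. Hairpin 1 organoids expressed an inducible short hairpin RNA against exon 4 of Suv4-20h2 and hairpin 2 organoids one against exon 9; each of these is called a clone. Control 1 and control 2 organoids, titled shCtrl, carried a control hairpin. All 4 groups, controls included, received 0.5 µg/ml doxycycline for 4 days. Set 1 held 3 hairpin 1 libraries and 3 control 1 libraries, and set 2 held 4 hairpin 2 libraries and 4 control 2 libraries.

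An origin is licensed when the origin recognition complex (ORC), with Cdc6 and Cdt1, loads the MCM2-7 helicase onto DNA in G1, and geminin (Gmnn) blocks Cdt1 once S phase has begun. The Cdc7-Dbf4 kinase, Cdc45, the GINS complex and Mcm10 then turn the loaded helicase into a moving one, and the polymerases, clamp and ligase follow it. Suv4-20h2, listed under the symbol Kmt5c, methylates histone H4 at lysine 20. In human cells, ORC1 binds the dimethylated form of that lysine through its BAH domain, which ties the mark to origin licensing. In the intestinal epithelium most of these genes are read chiefly in dividing crypt cells, and many are known targets of the E2F transcription factors. In RNA from whole organoids, fewer dividing cells and less RNA per cell cannot be told apart.

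The promoters of the genes are shown first because, of the 3 kinds of word searched (E2F, CCAAT and CHR), the E2F word was the one whose share differed most from that of all genes. Promoter windows of 250 bases before and 50 bases after the start (RefSeq, GRCm38.p6) were found for 35 of the 43 genes. They were searched on both strands for 4 versions of the E2F word, TTTCCCGC, TTTCGCGC, TTTGCCGC and TTTGGCGC. At least 1 version stood in the promoter of 15 of the 35 genes (42.9%) and in that of 704 of 27025 genes in the whole table (2.6%; 2.26% of 32851 windows of the same length). The 15 were Cdc6, Cdt1, Gins3, Lig1, Mcm3, Mcm5, Mcm6, Mcm7, Orc1, Orc3, Pola1, Pold1, Pold3, Pole2 and Rfc3. CCAAT, the word of the factor NF-Y, stood in 21 of the 35 promoters (60.0%) and in 41.1% of all genes, and TTTGAA, the CHR element of late cell cycle genes, stood in 7 (20.0%) and in 20.2%. Each word was searched by itself, so overlaps between different words were not removed. The windows below belong to the 5 genes described with every library value whose promoter held the E2F word, which is in capitals. They are written 5′ to 3′ on the strand of the gene, Cdc6 at chr11:98907901-98908200 (plus strand), Cdt1 at chr8:122567765-122568064 (plus strand), Orc1 at chr4:108579204-108579503 (plus strand), Pold1 at chr7:44548766-44549065 (minus strand) and Rfc3 at chr5:151651159-151651458 (minus strand).
Cdc6: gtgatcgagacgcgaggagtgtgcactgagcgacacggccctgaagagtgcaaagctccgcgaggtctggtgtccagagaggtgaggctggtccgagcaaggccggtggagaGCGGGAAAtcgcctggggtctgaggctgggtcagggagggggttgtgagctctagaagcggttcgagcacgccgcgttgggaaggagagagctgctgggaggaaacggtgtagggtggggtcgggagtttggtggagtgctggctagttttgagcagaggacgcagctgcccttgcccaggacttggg
Cdt1: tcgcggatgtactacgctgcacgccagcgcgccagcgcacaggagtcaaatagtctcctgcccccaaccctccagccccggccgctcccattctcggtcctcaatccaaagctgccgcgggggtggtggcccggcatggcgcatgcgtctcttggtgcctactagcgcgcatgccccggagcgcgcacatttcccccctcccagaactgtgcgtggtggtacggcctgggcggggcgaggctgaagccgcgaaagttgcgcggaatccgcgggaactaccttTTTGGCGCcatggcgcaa
Orc1: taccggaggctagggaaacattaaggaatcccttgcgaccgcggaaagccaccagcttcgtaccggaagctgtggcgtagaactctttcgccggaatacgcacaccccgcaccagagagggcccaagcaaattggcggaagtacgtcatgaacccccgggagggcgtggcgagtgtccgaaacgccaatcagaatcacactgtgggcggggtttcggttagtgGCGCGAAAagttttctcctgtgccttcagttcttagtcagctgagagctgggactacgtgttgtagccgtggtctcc
Pold1: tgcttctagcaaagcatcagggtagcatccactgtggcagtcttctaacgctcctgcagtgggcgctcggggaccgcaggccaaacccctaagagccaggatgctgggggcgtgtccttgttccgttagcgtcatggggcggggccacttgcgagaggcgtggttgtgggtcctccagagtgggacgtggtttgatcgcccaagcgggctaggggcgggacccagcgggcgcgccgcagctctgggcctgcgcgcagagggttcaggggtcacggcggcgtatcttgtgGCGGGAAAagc
Rfc3: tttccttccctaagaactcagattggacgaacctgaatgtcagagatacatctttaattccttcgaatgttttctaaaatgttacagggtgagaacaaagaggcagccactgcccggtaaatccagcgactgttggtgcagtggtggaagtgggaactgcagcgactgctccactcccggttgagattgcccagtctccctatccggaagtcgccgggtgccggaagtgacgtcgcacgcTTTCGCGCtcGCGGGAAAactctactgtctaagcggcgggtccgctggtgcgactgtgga

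With the start base counted as 1, the word began at -138 in Cdc6, 33 in Cdt1, -27 in Orc1 and 40 in Pold1. Rfc3 had 2 words, at -10 and 1, one on each strand. A match of letters is a description of the window and was not tested as a binding site.

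Set 1 libraries held between 16265034 and 23321606 counts, and set 2 libraries between 9272134 and 26284079. Levels are given as CPM, each count's share of its TMM-scaled library total, with no correction for gene length unless said, and levels were not tested across sets. The labels do not state whether replicates were separate cultures, so the spread behind the p-values is that between libraries and may be technical. Of 8 epithelial markers none was at 0, with summed levels of 5586 to 6948 CPM in hairpin 1, 5257 to 6907 CPM in control 1, 4397 to 5026 CPM in hairpin 2 and 5592 to 5737 CPM in control 2. Fibroblast markers summed to at most 2.1 CPM in set 1, where Dcn, Lum and Thy1 were at 0, and to 13.9 to 15.6 CPM in hairpin 2 against 9.22 to 11.9 CPM in control 2. Leukocyte markers summed to 6.51 to 54.9 CPM in hairpin 1, 9.84 to 40.1 CPM in control 1, 11.8 to 15.7 CPM in hairpin 2 and 14.2 to 20.5 CPM in control 2. Endothelial markers summed to 66.0 to 114 CPM in hairpin 1 and 111 to 228 CPM in control 1. In set 2 they summed to 11.5 to 15.6 CPM in hairpin 2 and 11.1 to 16.5 CPM in control 2. Set 2 listed only 3 of the 7 fibroblast, 2 of the 7 leukocyte and 3 of the 5 endothelial markers. All of them were listed in set 1, so these sums cover different genes in each set and cannot be compared across sets. Hairpin 1 replicate 1 stood apart: its medians against the control 1 mean were -4.23 for 8 goblet cell genes and -3.74 for 6 Paneth cell genes (log2), so set 1 results that it turned or moved widely are also given without it. Both replicate 4 libraries of set 2 stood apart in the replication genes themselves, as described further on.

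Kmt5c (ENSMUSG00000059851, GRCm38 chr7:4740115-4747514, plus strand), the gene the hairpins target, had 53.5, 64.2 and 56.0 CPM in hairpin 1 against 72.2, 75.7 and 67.2 CPM in control 1. In set 2 it had 114, 111, 99.2 and 106 CPM in hairpin 2 against 129, 121, 116 and 128 CPM in control 2. Hairpin libraries lay below control libraries in both sets with no overlap, a pattern seen in 6.37% of all genes tested in set 1 and 8.43% in set 2. The log2 fold change was -0.31 (SE 0.175, edgeR adjusted p = 0.801) for hairpin 1 and -0.20 (SE 0.0619, adjusted p = 0.0977) for hairpin 2. Neither passed the threshold of 0.05. In the fit with a replicate block, Kmt5c fell in hairpin 2 (adjusted p = 0.00741).

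The first comparison asked whether the exon 4 hairpin shifted the replication genes. None of the 43 passed the threshold in hairpin 1 against control 1, where 0 of 13540 genes passed (0.0%; 733 had an unadjusted p under 0.05, and DESeq2 called 18). The smallest adjusted p among them was 0.801 in edgeR, none had an unadjusted p under 0.05, and DESeq2 called none. Their median log2 fold change was 0.07, with 25 of 43 above 0, beside a median of 0.03 and 7111 of 13540 above 0 over all genes. The 95% intervals were wide, with a median half-width of 0.643 on the log2 scale (0.378 to 1.03), and 28 of 43 lay wholly between -1 and 1. Without hairpin 1 replicate 1 the median was 0.17 with 30 of 43 above 0 (all genes, -0.02), and again none passed (smallest adjusted p = 0.0703, Rpa3).

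The second comparison asked the same of the exon 9 hairpin. None of the 43 passed in hairpin 2 against control 2, where 854 of 14126 genes passed (6.05%). An unadjusted p under 0.05 was found for 6 of them, where 2793 of all 14126 genes had one. The 6 were Mcm10, Pola2, Pold2 and Cdt1 at a lower level in hairpin 2, and Orc5 and Rfc3 at a higher one. DESeq2 called 1, Mcm10 (adjusted p = 0.0222). The median log2 fold change was -0.05, with 13 of 43 above 0, beside 0.005 and 7218 of 14126 over all genes. Single libraries turned or moved this: 27 of 43 were above 0 without hairpin 2 replicate 4 (median 0.01) and 23 without control 2 replicate 2 (median 0.02), and without control 2 replicate 3 there were 20 (median -0.01). Intervals were narrower than in set 1: all 43 lay between -1 and 1, and 37 between -0.5 and 0.5. Since the replicate numbers of set 2 were taken to pair the libraries, the fit with the replicate block stands beside this one. It called 10 of the 43, 3 higher and 7 lower, where 20.4% of all genes tested passed (10.2% higher and 10.1% lower). Orc5, Rfc1 and Rfc3 were the 3 higher genes, and Mcm3, Mcm6, Mcm10, Cdt1, Pola2, Pold1 and Pold2 the 7 lower ones, with log2 fold changes of -0.22 to 0.24. Without both replicate 4 libraries, where 16.9% of all genes passed, 5 passed with no block: Cdt1, Mcm10 and Pold2 lower, and Rfc1 and Rfc3 higher.

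**Figure D1:**
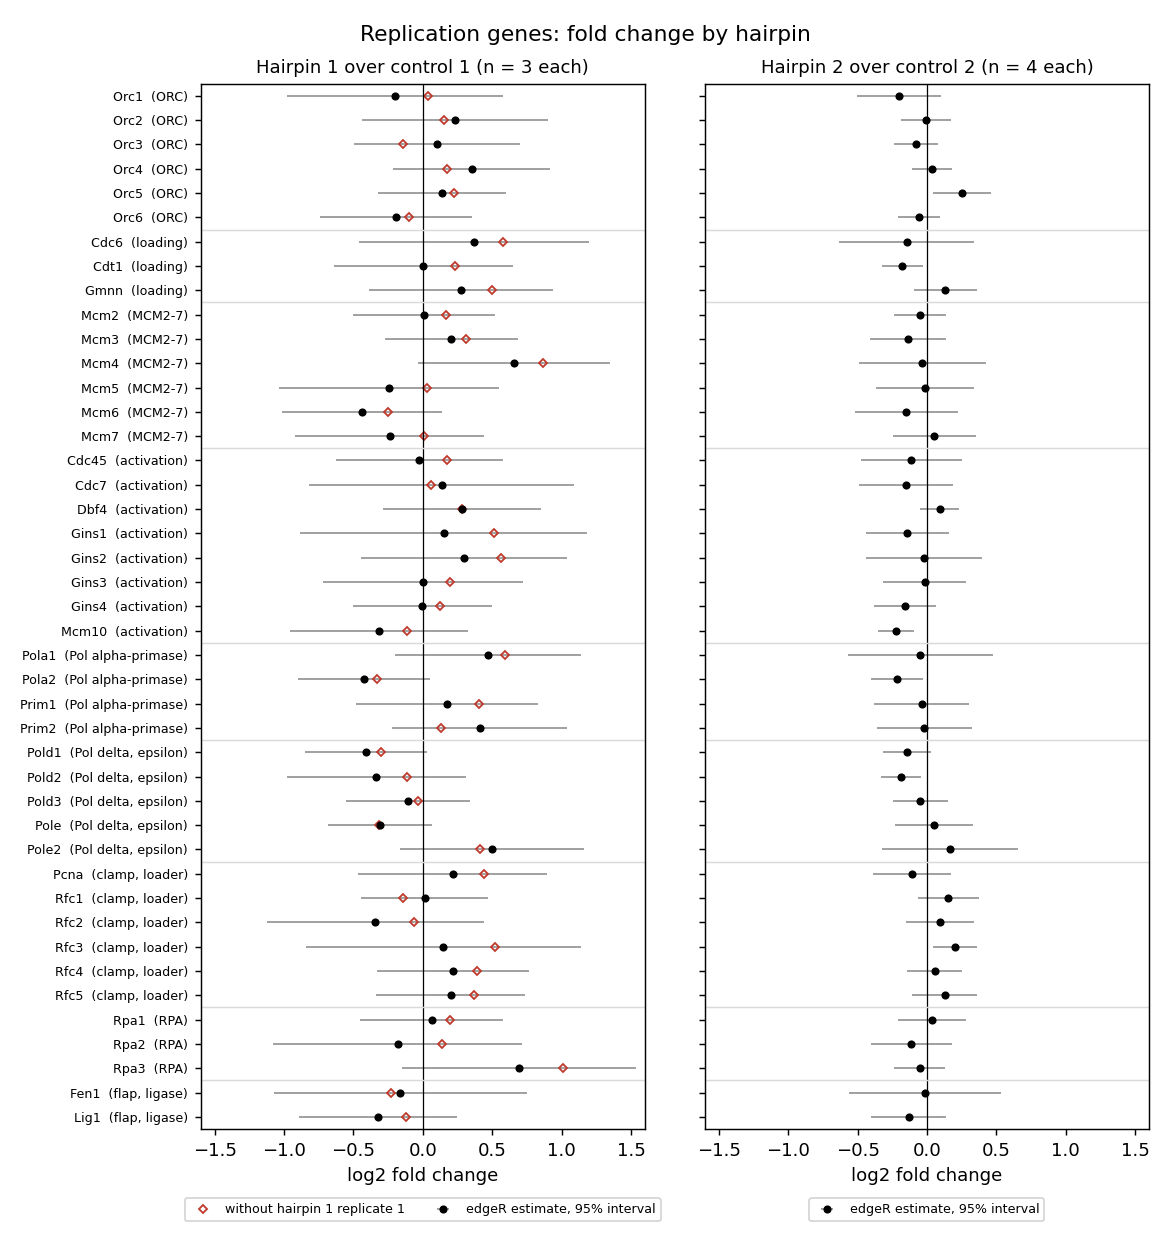
Log2 fold change of each of the 43 genes, hairpin 1 over control 1 on the left and hairpin 2 over control 2 on the right, grouped by role. Black points are edgeR estimates with 95% intervals and open red diamonds are the values without hairpin 1 replicate 1. Intervals include 0 for all 43 genes in set 1 and for all but 6 in set 2.

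Levels of some cell type markers differed between the groups of set 2. Fewer cells of a type and less marker RNA per cell cannot be told apart here. The 8 enterocyte markers, of which 7 were listed, summed to 113 to 171 CPM in hairpin 2 against 334 to 368 CPM in control 2, and all 4 that were tested fell. Over all genes tested in this fit, 566 of 14126 fell and 288 rose. Of the 8 epithelial markers, 4 fell and none rose. Of the 8 goblet cell markers 2 fell (Clca1 and Guca2a), and of 5 stem cell markers tested 1 fell (Smoc2). Of 2 fibroblast markers tested 1 rose (Pdgfra, 14.5 CPM in hairpin 2 and 9.94 CPM in control 2 on average, edgeR adjusted p = 0.00938). None of 4 Paneth cell markers tested passed, and all 4 lay below 0. With the replicate block, where 10.2% of all genes rose and 10.1% fell, 5 epithelial, 5 goblet, 2 Paneth and 2 stem cell markers fell. Without both replicate 4 libraries, where 16.9% of all genes passed, 5 epithelial, 5 goblet, 3 Paneth and 2 stem cell markers fell. With the block 1 goblet and 1 stem cell marker rose, and without those libraries no marker of these lists did. The 1 leukocyte marker tested fell in both fits. The part of these shifts in the values of the replication genes was not tested.

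Among the 6 ORC genes, whose products mark origins, medians were 0.12 in set 1 and -0.03 in set 2. Orc1 (ENSMUSG00000028587, GRCm38 chr4:108579423-108614833, plus strand), the subunit with the BAH domain, had 11.2, 19.0 and 22.0 CPM in hairpin 1 against 15.1, 21.3 and 23.4 CPM in control 1. In set 2 it had 13.2, 11.9, 11.0 and 9.46 CPM in hairpin 2 against 13.8, 15.3, 13.4 and 10.6 CPM in control 2. The groups overlapped in both sets. Its log2 fold changes were -0.20 in each, with 95% intervals of -0.98 to 0.58 for hairpin 1 and -0.51 to 0.10 for hairpin 2. The hairpin 1 value turned to 0.04 without hairpin 1 replicate 1.

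Orc5 (ENSMUSG00000029012, GRCm38 chr5:22486485-22550429, minus strand), an ATP-binding subunit of the core complex, was the one gene of the 43 whose 4 hairpin 2 libraries all lay above the control 2 libraries, a pattern seen in 6.9% of all genes tested. It had 43.9, 46.1, 47.1 and 58.6 CPM in hairpin 2 against 41.1, 42.2, 37.7 and 43.3 CPM in control 2. The log2 fold change was 0.25 (SE 0.0936, adjusted p = 0.167, and 0.02 with the replicate block). In set 1 it had 41.0, 50.0 and 50.3 CPM in hairpin 1 against 45.7, 44.1 and 38.4 CPM in control 1, which overlapped. Replicate 4 was the highest library of hairpin 2 here, where most other replication genes were at their lowest. Orc2, Orc3, Orc4 and Orc6 lay between -0.19 and 0.35 in set 1 (-0.14 to 0.18 without hairpin 1 replicate 1) and between -0.08 and 0.04 in set 2, and no call was made on any of them in either fit of set 2. Orc2 shared 29.8% of its exonic bases with Nif3l1 on the opposite strand, and since the strand setting of the counting is not given its level is uncertain.

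The 3 loading genes had medians of 0.28 in set 1 (3 above 0; 0.50 without hairpin 1 replicate 1) and -0.15 in set 2 (1 above 0). Cdc6 (ENSMUSG00000017499, GRCm38 chr11:98907801-98923940, plus strand), the ATPase that joins ORC to bring in the helicase, had 26.3, 41.4 and 48.5 CPM in hairpin 1 against 19.1, 40.9 and 30.1 CPM in control 1. It had 26.8, 23.6, 24.0 and 13.7 CPM in hairpin 2 against 26.2, 28.4, 27.4 and 16.1 CPM in control 2. Replicate 4 was lowest in both groups of set 2, and the groups overlapped in both sets (0.37, SE 0.352, in set 1, 0.58 without hairpin 1 replicate 1, and -0.15, SE 0.218, in set 2). Cdt1 (ENSMUSG00000006585, GRCm38 chr8:122568015-122573554, plus strand), the partner that carries MCM2-7 to the origin, had 80.3, 122 and 166 CPM in hairpin 1 against 125, 112 and 131 CPM in control 1, a log2 fold change of 0.01 that was 0.23 without hairpin 1 replicate 1. Its hairpin 2 libraries had 69.8, 71.8, 70.6 and 77.2 CPM and its control 2 libraries 85.6, 88.4, 76.7 and 76.6 CPM. Only replicate 4 of hairpin 2 reached the control 2 range, and the log2 fold change was -0.18 (SE 0.0668, adjusted p = 0.169). With the block Cdt1 fell (adjusted p = 0.0456), and without both replicate 4 libraries it was at -0.24 (adjusted p = 0.00868).

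Gmnn (ENSMUSG00000006715, GRCm38 chr13:24751845-24761923, minus strand), which encodes the Cdt1 inhibitor geminin, had 47.4, 73.8 and 94.7 CPM in hairpin 1 against 49.2, 65.8 and 63.0 CPM in control 1. It had 35.7, 34.2, 37.3 and 29.9 CPM in hairpin 2 against 32.3, 35.5, 30.6 and 26.6 CPM in control 2. The groups overlapped, and the log2 fold changes were 0.28 (SE 0.282; 0.50 without hairpin 1 replicate 1) and 0.13 (SE 0.101). Per kb of exon, the ratio of Gmnn to Cdt1 was 1.10, 1.02, 1.13 and 0.83 in hairpin 2 against 0.81, 0.861, 0.855 and 0.744 in control 2. Replicates 1 to 3 of hairpin 2 lay above every control 2 library and replicate 4 did not. In set 1 the ratio was 1.27, 1.30 and 1.22 in hairpin 1 against 0.841, 1.27 and 1.03 in control 1, with overlap. This ratio was chosen for description and was not tested.

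Of the MCM2-7 genes, which encode the helicase ring, 3 of 6 were above 0 in set 1 (median -0.11) and 1 of 6 in set 2 (median -0.04). Without hairpin 1 replicate 1 the set 1 values turned, with 5 of 6 above 0 and a median of 0.10. Mcm2 (ENSMUSG00000002870, GRCm38 chr6:88883474-88898780, minus strand) had 129, 182 and 195 CPM in hairpin 1 against 144, 182 and 177 CPM in control 1. It had 149, 148, 141 and 126 CPM in hairpin 2 against 147, 162, 151 and 125 CPM in control 2. The means nearly coincided in both sets, at 0.01 (95% interval -0.50 to 0.52) and -0.05 (-0.24 to 0.14) on the log2 scale, and the set 1 value was 0.17 without hairpin 1 replicate 1. With the replicate block Mcm3 (-0.14, adjusted p = 0.0412) and Mcm6 (-0.16, adjusted p = 0.0455) fell in hairpin 2, and Mcm5 (-0.02) and Mcm7 (0.05) did not pass.

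Mcm4 (ENSMUSG00000022673, GRCm38 chr16:15623897-15637400, minus strand) had the smallest p of the 43 genes in set 1. It had 59.9, 94.9 and 109.7 CPM in hairpin 1 against 44.0, 72.2 and 51.6 CPM in control 1. Replicate 1 of hairpin 1 lay below the highest control 1 library, so the groups overlapped. The log2 fold change was 0.66 (SE 0.294, 95% interval -0.03 to 1.35, unadjusted p = 0.0593, adjusted p = 0.801), and 0.87 without hairpin 1 replicate 1 (adjusted p = 0.132). In hairpin 2 it had 137, 144, 137 and 76.7 CPM against 129, 145, 145 and 87.9 CPM in control 2, a log2 fold change of -0.03 (95% interval -0.49 to 0.42). As a share of the MCM2-7 sum per kb, Mcm4 made up 7.42, 7.50 and 7.45% in hairpin 1 against 3.94, 5.43 and 3.54% in control 1. These shares did not overlap, hairpin 1 replicate 1 included, while Mcm5, Mcm6 and Mcm7 had log2 fold changes of -0.24, -0.44 and -0.24, which were 0.03, -0.25 and 0.01 without that library. In set 2 the share was 17.1, 17.3, 17.7 and 14.2% in hairpin 2 against 16.5, 16.5, 17.8 and 14.8% in control 2. The share was singled out after its values were seen, and 3 libraries against 3 allow no exact test to pass.

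**Figure D2:**
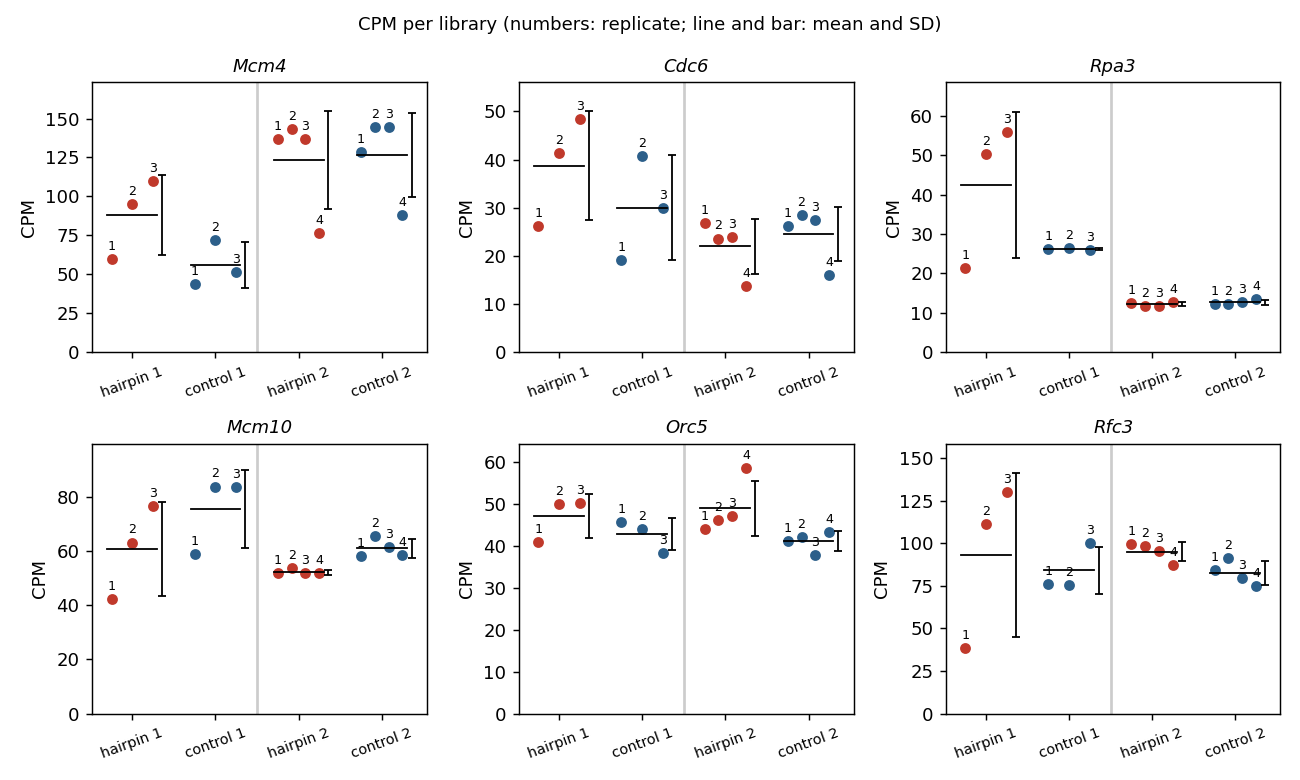
CPM in each library for 6 genes, with hairpin groups in red to the left of their controls in blue, set 1 left of the grey line and set 2 right of it. Numbers are replicates, and the line and bar are the mean and SD. Replicate 1 of hairpin 1 is the lowest of its group in all 6 genes, and replicate 4 is the lowest of both set 2 groups for Mcm4, Cdc6 and Rfc3.

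The 8 genes that activate the helicase had medians of 0.07 in set 1 (4 above 0; 0.18 and 7 above 0 without hairpin 1 replicate 1) and -0.13 in set 2 (1 above 0, Dbf4). Mcm10 (ENSMUSG00000026669, GRCm38 chr2:4989714-5012791, minus strand), which helps to start the loaded helicase, was nearest to a call in set 2. It had 51.9, 53.7, 51.8 and 51.8 CPM in hairpin 2 against 58.1, 65.7, 61.6 and 58.6 CPM in control 2. The groups did not overlap, as for 3 of the 43 genes in that direction and 8.43% of all genes tested. The log2 fold change was -0.22 (SE 0.0587, 95% interval -0.35 to -0.09, adjusted p = 0.055), and Mcm10 fell with the replicate block (adjusted p = 0.00806) and without both replicate 4 libraries (-0.23, adjusted p = 0.00952). In set 1 it had 42.2, 63.2 and 76.6 CPM in hairpin 1 against 58.9, 83.9 and 83.8 CPM in control 1, a log2 fold change of -0.32 (SE 0.272; -0.11 without hairpin 1 replicate 1) with overlap. The other activators, Cdc45, the 4 GINS genes and the kinase pair Cdc7 and Dbf4, lay between -0.03 and 0.30 in set 1 (0.06 to 0.56 without hairpin 1 replicate 1) and between -0.16 and 0.09 in set 2. Gins2 shared 67.3% of its exonic bases with Gse1 on the opposite strand, and its level is uncertain.

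The primase and polymerase alpha genes start each new strand. Pola2 (ENSMUSG00000024833, GRCm38 chr19:5940542-5964202, minus strand), the regulatory subunit, had 56.5, 57.0, 53.3 and 47.8 CPM in hairpin 2 against 58.4, 70.6, 62.4 and 58.2 CPM in control 2. The groups did not overlap, and the log2 fold change was -0.22 (SE 0.083, adjusted p = 0.179, and 0.0175 with the replicate block). In set 1 it had 81.2, 91.0 and 111 CPM in hairpin 1 against 109, 145 and 125 CPM in control 1, a log2 fold change of -0.42 (SE 0.202, adjusted p = 0.801), with 1 hairpin 1 library above the lowest control 1 library. The catalytic gene Pola1 and the primase genes Prim1 and Prim2 lay at 0.47, 0.17 and 0.41 in set 1 (0.59, 0.41 and 0.13 without hairpin 1 replicate 1) and at -0.05, -0.04 and -0.02 in set 2. Prim2 had 57.6 CPM in hairpin 1 replicate 1, above the 29.9 to 39.2 CPM of the other libraries of set 1.

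Polymerases delta and epsilon copy the bulk of the genome. Pold1 (ENSMUSG00000038644, GRCm38 chr7:44532746-44548849, minus strand), the delta catalytic subunit, had 74.2, 90.8 and 98.2 CPM in hairpin 1 against 129, 113 and 107 CPM in control 1. It had 75.8, 83.8, 68.3 and 68.4 CPM in hairpin 2 against 84.5, 87.9, 78.0 and 77.9 CPM in control 2. The groups overlapped in set 2 and not in set 1, where Pold1 and Pole were the 2 genes whose hairpin 1 libraries all lay below control 1, a pattern of 6.37% of all genes tested. No gene of the 43 lay wholly above (6.48% of all genes). The log2 fold changes of Pold1 were -0.41 (SE 0.187, adjusted p = 0.801) and -0.14 (SE 0.0785, adjusted p = 0.354, and 0.0402 with the block). Pole (ENSMUSG00000007080, GRCm38 chr5:110286306-110337474, plus strand), the epsilon catalytic subunit, had 72.7, 68.1 and 76.3 CPM in hairpin 1 against 90.3, 86.9 and 91.7 CPM in control 1, at -0.31 (SE 0.161, adjusted p = 0.801). In set 2 it had 76.9, 91.5, 83.8 and 65.9 CPM in hairpin 2 against 76.5, 89.8, 79.6 and 61.1 CPM in control 2, at 0.05 (SE 0.126). These overlapped.

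Pold2 (ENSMUSG00000020471, GRCm38 chr11:5872180-5878292, minus strand), an accessory delta subunit, had 67.9, 67.1, 64.4 and 60.3 CPM in hairpin 2 against 75.1, 79.9, 71.5 and 69.8 CPM in control 2. All 4 hairpin 2 libraries lay below control 2, and the log2 fold change was -0.19 (SE 0.0644, adjusted p = 0.128, and 0.0133 with the block). In set 1 it had 71.0, 102 and 148 CPM in hairpin 1 against 145, 126 and 134 CPM in control 1, at -0.33 (SE 0.275; -0.11 without hairpin 1 replicate 1). The spread of hairpin 1 covered that of control 1. Pold3 lay at -0.11 in set 1 (-0.03 without hairpin 1 replicate 1) and -0.05 in set 2, and Pole2 at 0.50 in set 1 and 0.17 in set 2. Pole2 was highest in set 1 in hairpin 1 replicate 1 (23.5 CPM), in contrast to most of the genes.

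The sliding clamp and its 5 loader genes had 5 of 6 genes above 0 in each set (medians 0.17 and 0.11); without hairpin 1 replicate 1, set 1 had 4 above 0 and a median of 0.38. Pcna (ENSMUSG00000027342, GRCm38 chr2:132249162-132253314, minus strand), the clamp itself, had 250.2, 429 and 454 CPM in hairpin 1 against 244, 374 and 358 CPM in control 1, and 96.9, 99.9, 99.6 and 67.8 CPM in hairpin 2 against 98.4, 108, 104 and 82.8 CPM in control 2. The groups overlapped (0.22, SE 0.29, in set 1, 0.44 without hairpin 1 replicate 1, and -0.11, SE 0.127, in set 2). Pseudogene copies of Pcna are annotated in GENCODE M21, and whether reads were shared with them was not measured. Rfc3 (ENSMUSG00000033970, GRCm38 chr5:151642756-151651242, minus strand), a loader subunit, had 99.4, 98.2, 95.5 and 87.1 CPM in hairpin 2 against 84.4, 91.5, 79.7 and 75.2 CPM in control 2. Only replicate 4 of hairpin 2 reached the control 2 range, and the log2 fold change was 0.20 (SE 0.0726, adjusted p = 0.149, and 0.00958 with the block). In set 1 Rfc3 had 38.3, 111 and 129.9 CPM in hairpin 1 against 76.3, 75.7 and 100.2 CPM in control 1. There replicate 1 of hairpin 1 was the lowest library of the set and replicates 2 and 3 the highest, and the value of 0.15 became 0.52 without replicate 1 (adjusted p = 0.239). Rfc1 rose with the block in set 2 (0.15, adjusted p = 0.0254), and Rfc2, Rfc4 and Rfc5 lay at 0.09, 0.06 and 0.13.

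Rpa3 (ENSMUSG00000012483, GRCm38 chr6:8255936-8259173, minus strand), the smallest RPA subunit, differed most between the hairpins. It had 21.4, 50.3 and 55.8 CPM in hairpin 1 against 26.3, 26.4 and 26.0 CPM in control 1, and 12.5, 11.7, 11.8 and 12.9 CPM in hairpin 2 against 12.2, 12.2, 12.8 and 13.4 CPM in control 2. Replicates 2 and 3 of hairpin 1 lay above every control 1 library and replicate 1 below every control 1 library. The log2 fold change was 0.70 (SE 0.359, adjusted p = 0.801) for hairpin 1 and -0.05 (95% interval -0.24 to 0.13) for hairpin 2. Without hairpin 1 replicate 1 the hairpin 1 value was 1.01 (adjusted p = 0.0703). Rpa1 and Rpa2, the other subunits of the same trimer, lay at 0.07 and -0.18 in set 1 (0.19 and 0.14 without hairpin 1 replicate 1), and at 0.04 and -0.11 in set 2.

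The difference between the hairpin effects, hairpin 1 minus hairpin 2, was tested in a model of all 14 libraries. None of the 43 passed, where 62 of 15043 genes did (0.412%), 1 had an unadjusted p under 0.05 (Rpa3), DESeq2 called none, and their median difference was 0.09. Without hairpin 1 replicate 1, Rpa3 passed (difference 1.11, adjusted p = 0.00111), where 6.26% of all genes did. The median difference was then 0.25 with 35 of 43 above 0, beside 0.01 over all genes. Since each hairpin has its own set and control, set and hairpin cannot be told apart here.

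The Okazaki fragment enzymes closed the list. Lig1, the ligase, lay at -0.32 (SE 0.243; -0.12 without hairpin 1 replicate 1) in set 1 and -0.13 (SE 0.121) in set 2. Fen1, the flap endonuclease, had only 1.91 to 3.27 CPM in set 1 and 1.82 to 3.61 CPM in set 2, from 22 to 92 counts a library. Of its exonic bases 84.2% are shared with Tmem258 and Gm10143 on the opposite strand, so its level is uncertain. Per kb of exon it was the lowest of the 43 in all 4 groups, and Gins3 came next in each. Per kb, Pcna was highest in set 1 (158 CPM per kb in hairpin 1 and 136 CPM per kb in control 1), ahead of Mcm7 (98.6 and 117 CPM per kb). In hairpin 2, Mcm7, Mcm6 and Pcna were at 41.8, 39.9 and 37.9 CPM per kb, against 40.3, 44.3 and 40.9 CPM per kb in control 2. These neighbours lay within the spread of their libraries.

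Hairpin and control did not overlap for some single genes, such as Mcm10 in set 2. As a median over all 43, the genes varied more from library to library than between hairpin and control. Against the control mean of the set, their median deviation (log2 of CPM plus 0.5) was -0.31, 0.09 and 0.27 in the hairpin 1 libraries and -0.19, 0.09 and 0.09 in the control 1 libraries. It was 0.02, 0.05, 0.01 and -0.29 in hairpin 2 and 0.03, 0.18, 0.04 and -0.22 in control 2. Replicate 4 of hairpin 2 was the lowest of its group in 37 of the 43 genes (86.0%, against 38.3% of all genes tested), and replicate 4 of control 2 in 39 (90.7%, against 37.5%). In 39 of the 43 genes both replicate 4 libraries lay below the mean of replicates 1 to 3. The shortfalls of the 2 libraries across the 43 genes had a Pearson r of 0.9, as a description of these libraries only. Replicate 1 of hairpin 1 was the lowest of its group in 33 of the 43 (76.7%, against 46.8%).

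Secretory cell markers were high in the same replicate 4 libraries. Against the control 2 mean, the median of 8 goblet cell genes was 0.06 in hairpin 2 replicate 4, beside -0.61 to -0.55 in replicates 1 to 3, and 0.76 in control 2 replicate 4, beside -0.30 to -0.18 (log2). The median of 4 Paneth cell genes was 0.34 in hairpin 2 replicate 4, beside -0.70 to -0.65, and 0.87 in control 2 replicate 4, beside -0.27 to -0.19. In hairpin 1 replicate 1 both lists were low, as given above. The part of these shifts in the values of the replication genes was not tested.

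**Figure D3:**
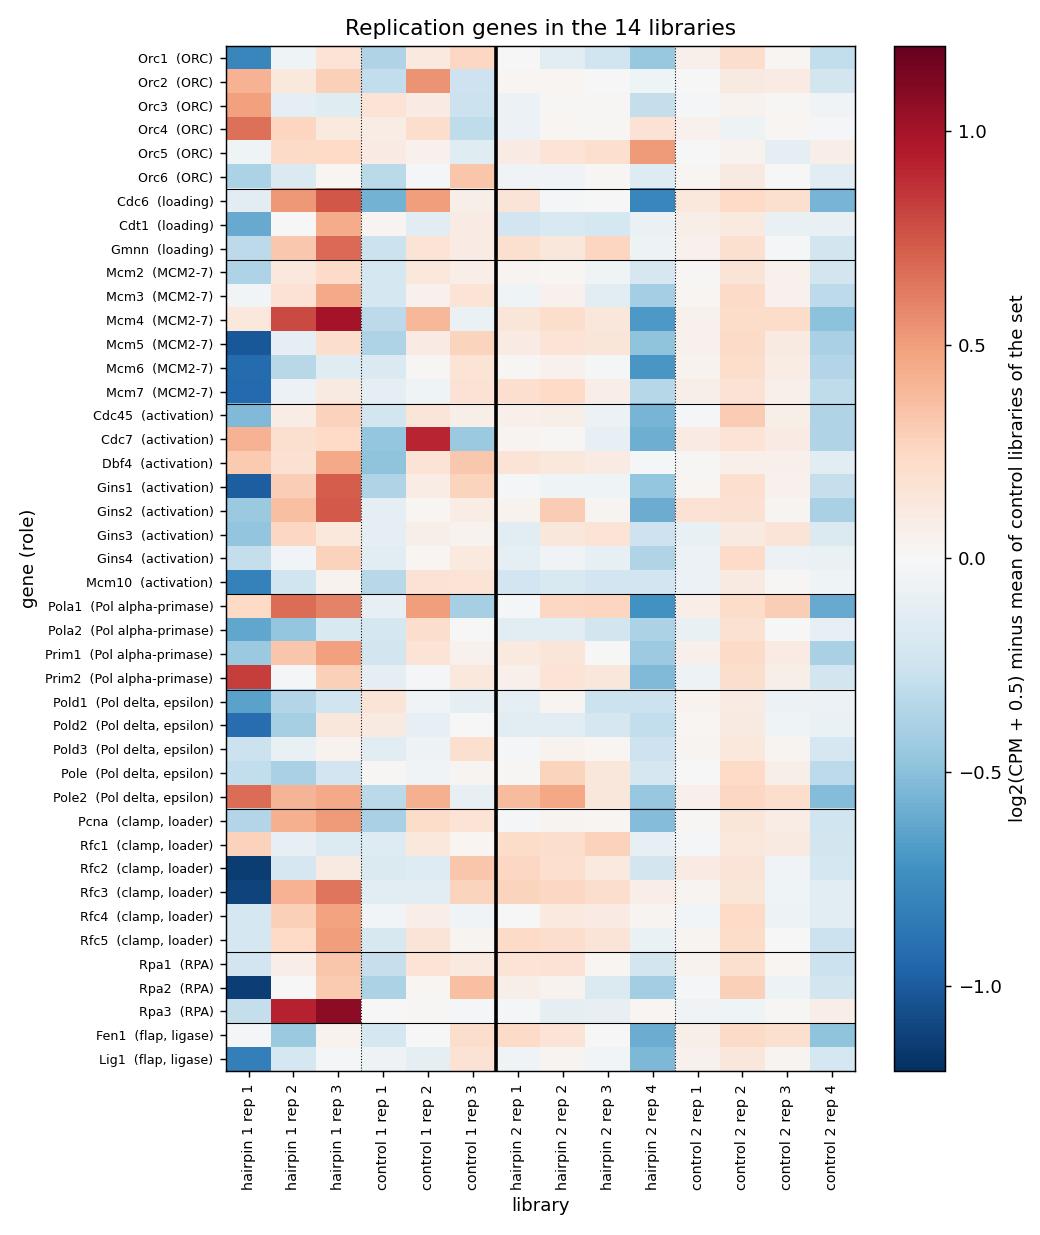
Log2(CPM + 0.5) of each gene in each of the 14 libraries minus the mean of the control libraries of its set, hairpin libraries left of controls within each set and genes grouped by role. Blue columns mark hairpin 1 replicate 1 and both replicate 4 libraries of set 2, whose medians were -0.31, -0.29 and -0.22. Control 1 replicate 1 was low as well, with a median of -0.19 and 35 of 43 genes below 0.

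The roles did not share this shortfall equally. In replicate 4 of hairpin 2 the median difference from replicates 1 to 3 was -0.57 for MCM2-7, with all 6 at their lowest, and -0.10 for ORC, with 4 of 6 at their lowest. In replicate 4 of control 2 the values were -0.44 for MCM2-7, again all 6, and -0.11 for ORC. In hairpin 1 replicate 1 they were -0.73 for MCM2-7, all 6 lowest, and -0.04 for ORC, with 3 lowest and 3 highest. Single genes ranged widely: Pola1 was at -0.88 and -0.80 in the replicate 4 libraries of hairpin 2 and control 2, Cdc6 at -0.83 and -0.74, and Mcm10 at -0.02 and -0.07. In hairpin 1 replicate 1, Rfc3 was lowest at -1.64 and Prim2 highest at 0.70. Of the 35 genes with a promoter window, 15 had the E2F word and 20 did not, and genes with no window are left out here. The 15 had medians of -0.36, -0.40 and -0.69 in hairpin 2 replicate 4, control 2 replicate 4 and hairpin 1 replicate 1. The 20 had medians of -0.21, -0.29 and -0.49, and the difference was not tested. Mitosis markers were low in the same set 2 libraries, with 13 of 14 at their lowest in each and medians of -0.43 and -0.38, and so were the 9 nucleotide supply genes (-0.63 and -0.59).

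Summed per kb of exon, MCM2-7 came to 225, 352 and 410.4 CPM per kb in hairpin 1 against 312, 370.3 and 406 CPM per kb in control 1. The sums were 223, 231, 215 and 151 CPM per kb in hairpin 2 against 218, 244, 226 and 166 CPM per kb in control 2. The 6 ORC genes summed to 59.8, 59.3 and 64.0 CPM per kb in hairpin 1 against 53.4, 65.7 and 64.0 CPM per kb in control 1, and to 57.5, 58.9, 59.1 and 57.4 CPM per kb in hairpin 2 against 59.3, 61.2, 58.8 and 54.8 CPM per kb in control 2. Hairpin and control overlapped in every sum, and the ORC sums spread far less than the MCM2-7 sums.

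**Figure D4:**
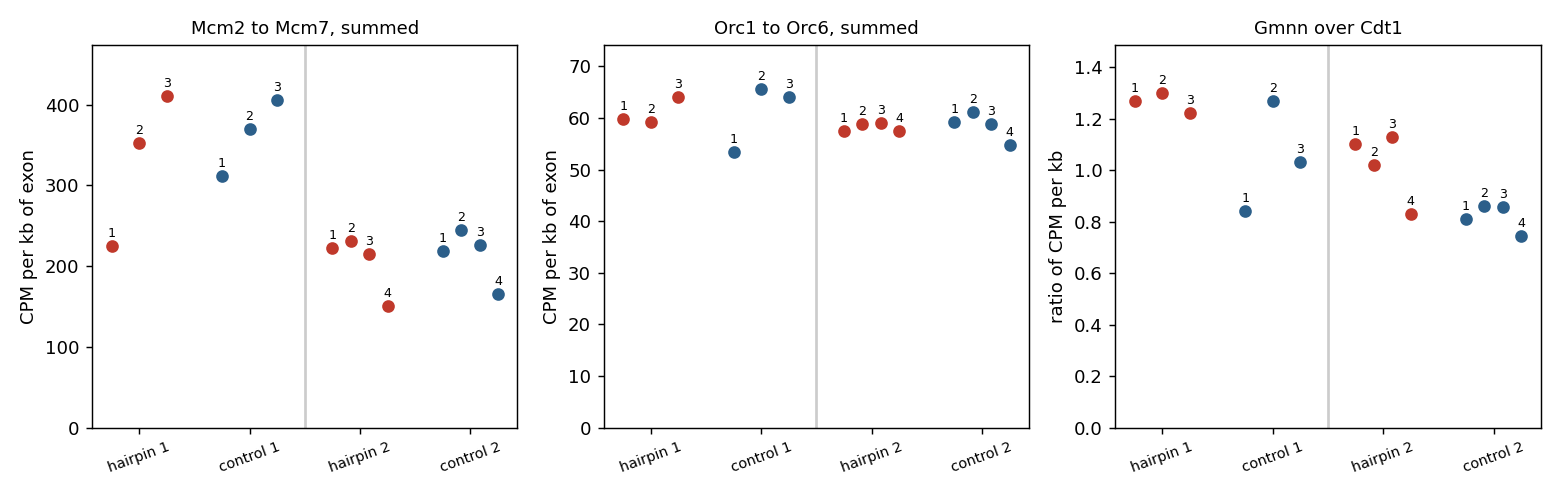
Summed CPM per kb of exon of Mcm2 to Mcm7 and of Orc1 to Orc6, and the ratio of Gmnn to Cdt1 per kb, in each library. Hairpin groups in red stand left of their controls in blue, and numbers are replicates. MCM2-7 sums run from 151 to 231 in hairpin 2 and from 166 to 244 in control 2, while ORC sums stay between 53.4 and 65.7 in all 14 libraries.

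In set 2 most of the genes on chromosomes 5, 12 and 13 lay above 0, and most of those on the other chromosomes lay below 0. These chromosomes had the highest medians over all genes averaging 5 CPM or more in set 2. The split therefore follows the same fold changes that it describes, and it was not tested. Of the 9 genes on chromosome 5 (Cdc7, Dbf4, Mcm7, Orc5, Pole, Rfc1, Rfc2, Rfc3 and Rfc5), 8 were above 0 with a median of 0.09, on a chromosome where 597 of 715 genes averaging 5 CPM or more were above 0 (median 0.12). Pole2 on chromosome 12 lay at 0.17 (chromosome median 0.13) and Gmnn on chromosome 13 at 0.13 (chromosome median 0.19). On all other chromosomes 3 of 32 were above 0, with a median of -0.07. All 3 genes that rose with the replicate block lay on chromosome 5, and none of the 7 that fell did. After the chromosome's own median was subtracted, an alternative added after the data were seen, 4 of the 9 chromosome 5 genes and 4 of the 32 others were above 0, and 9 of 43 in all.

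Per library, the median deviation of the chromosome 5 genes minus that of the other 34 was 0.21, 0.17, 0.14 and 0.30 in hairpin 2 against -0.0003, -0.04, 0.02 and -0.005 in control 2. All 4 hairpin 2 libraries lay above control 2. In set 1 it was 0.15, 0.11 and -0.04 in hairpin 1 against 0.06, -0.04 and -0.06 in control 1, with overlap, and 6 of 9 chromosome 5 genes were above 0. Of the 6 clamp and loader genes, 4 lay on chromosome 5.

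**Figure D5:**
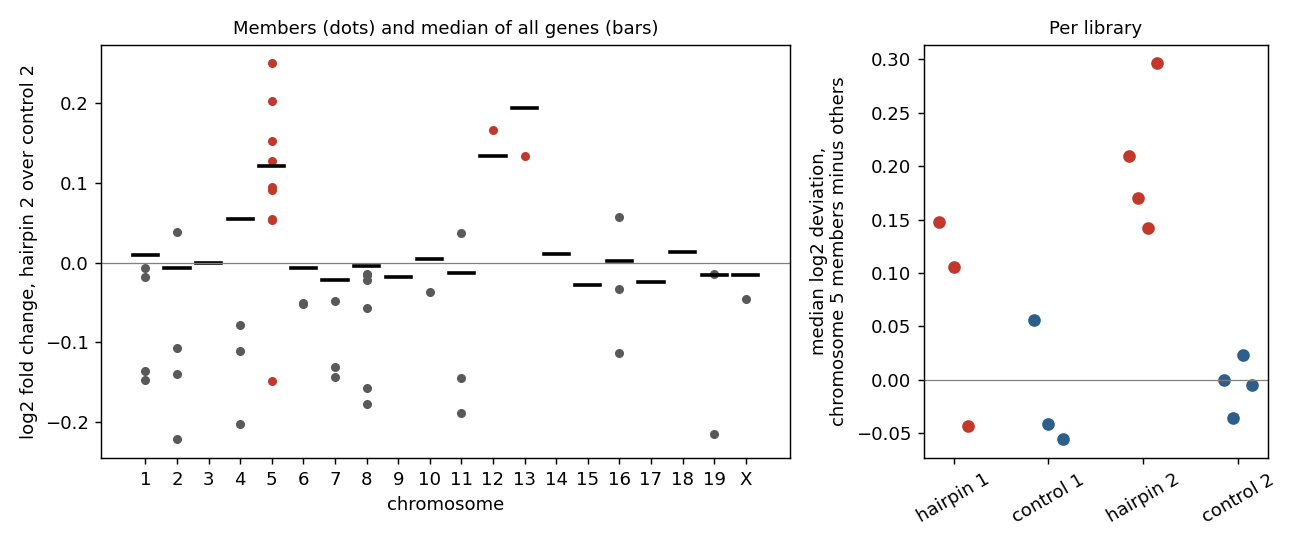
Left, log2 fold change of each of the 43 genes (dots, red on chromosomes 5, 12 and 13) in hairpin 2 over control 2 by chromosome, with the median of all genes of that chromosome as a bar. Right, the median deviation of the 9 chromosome 5 genes minus that of the other 34 genes in each library (log2), hairpin groups in red left of controls in blue. The 4 hairpin 2 libraries lie between 0.14 and 0.30 and the 4 control 2 libraries between -0.04 and 0.02.

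Genes around the pathway gave the same lack of calls. No gene passed in either set in the lists of H4K20 and origin link genes (5 tested), firing factors (8), fork partners (22), licensing turnover (8), nucleotide supply (9), S-phase entry (21), ATR checkpoint (12) or mitosis markers (14). Of their 99 genes, edgeR gave an unadjusted p under 0.05 to 2 in set 1 and 10 in set 2. Over all genes tested it did so for 733 of 13540 in set 1 and 2793 of 14126 in set 2. DESeq2 called 0 and 3 of the 99 (Cdkn2a, Rad17 and Rnaseh2a). In set 1 Cdkn1b, a Cdk inhibitor, lay at 0.57 and Chaf1a, a histone chaperone of the fork, at -0.50, both with an edgeR adjusted p of 0.801. The smallest adjusted p in set 2 was that of Rad17, the checkpoint clamp loader, on chromosome 13 (38.0 ± 3.01 CPM in hairpin 2 and 31.1 ± 1.70 CPM in control 2, SD, n = 4 each, adjusted p = 0.0551 in edgeR).

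With the replicate block, where 10.2% of all genes rose and 10.1% fell, some of these genes were called in set 2. In nucleotide supply 4 of 9 rose, among them Tyms, thymidylate synthase, on chromosome 5 (0.32, adjusted p = 0.00167). In S-phase entry 4 of 21 rose, with Rb1 at 0.23, Cdkn2a at 0.20 and E2f3 at 0.20. Among fork partners Pole4 rose (0.37, adjusted p = 0.0187), and Rnaseh2a, an RNase H2 subunit (-0.28, adjusted p = 0.00432), and Tonsl, a reader of newly made histones (-0.25, adjusted p = 0.0311), fell, 3 of 22. Among firing factors 1 of 8 fell (Wdhd1, -0.20), in the checkpoint list 1 of 12 rose (Rad17, 0.29), and in the mitosis list 1 of 14 rose (Ccnb1 on chromosome 13, 0.22). None of 8 licensing turnover genes passed. In the H4K20 list Kmt5b rose (0.14, adjusted p = 0.0431), Kmt5c fell, and Kmt5a, which makes the monomethyl form, did not pass (0.14, adjusted p = 0.0752).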

How the data were processed

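The labels' protocols describe stranded libraries of poly(A) RNA, 14 in all. As deposited, each library has a file of raw gene counts, which the authors left unscaled as far as the values show. The submitters' processing notes name bcl2fastq 2.20, FastQC, STAR, featureCounts, DESeq2 and GRCm38, and nothing more on versions or settings is known here. Symbols came from GENCODE M21, and no pair of replicates agreed within sampling noise (lowest chi-square per gene 21.82 in set 1 and 2.836 in set 2).

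The genes, lists and tests were chosen with earlier results of these data known. Within a set, hairpin and control were compared by the quasi-likelihood test of edgeR 4.0.16 under R 4.3.3, with TMM factors, filterByExpr, Benjamini-Hochberg adjustment over all genes tested and a threshold of 0.05; all 43 genes passed the filter in both sets. A model of the 14 libraries, on genes listed in both sets, tested the difference between hairpins. Scripts were tested on simulated data. Library values are given for Kmt5c, 6 preset genes (Orc1, Cdc6, Cdt1, Gmnn, Mcm2, Pcna), the 5 genes with the smallest p in each set, and any past the threshold. Alternatives were DESeq2's size factors and Wald test (DESeq2 1.42.0), no filter, the replicate block, the model of all libraries and leaving out libraries.

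Same-numbered libraries of set 2 deviated together (r = 0.371, 0.255, 0.393 and 0.691, limit 0.1), so the numbers were taken to pair them. This rests on the data, not the labels, and mostly sets replicate 4 apart: among replicates 1 to 3, differing numbers gave 0.179 to 0.293.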

Additional observations from a re-analysis of the deposited data

Results flagged for a closer look

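Among 34 groups of 4 libraries examined in set 2, 4 held a library set apart from its nearest neighbour by most of the group's range (Dixon's 95% limit), and chance marks about 1 in 20 such groups. Of these, 3 were the replicate 4 library of hairpin 2 at the low end: Mcm4 at 76.7 CPM, Pcna at 67.8 CPM and the median deviation of the 43 genes at -0.293 on the log2 scale. The replicate 4 library of control 2 was also the lowest of its group in Mcm4 (87.9 CPM), Pcna (82.8 CPM) and that median (-0.22). The 4th was Mcm10, at 53.7 CPM in replicate 2 of hairpin 2, where the other libraries of hairpin 2 lay within 51.8 to 51.9 CPM. Causes were not tested.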

How the results depend on the processing

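The number of libraries and the spread between them limit both sets, with a median half-width of the 95% intervals of 0.643 in set 1 and 0.247 in set 2, and Fen1 had the fewest counts. Of the single-gene values, 373 stayed on the same side of 0 and of the threshold, 22 passed it and 21 changed sign; of the counts and medians, 109 stayed close and 33 moved.

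Genes past the threshold were 0 in set 1, and 18 with DESeq2 and 187 in the model of all 14 libraries. In set 2 they were 854, and 1321 with DESeq2, 2880 with the replicate block, 120 in the model of all libraries, 2396 without both replicate 4 libraries and 3529 with the block and without those libraries. Of the 43 genes, set 2 then called 1, 10, 0, 5 and 9. For the difference between hairpins, 62 genes passed, and 398 with DESeq2. The cause was not tested.

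Leaving out libraries gave 0 to 1 gene in set 1, 453 to 3529 genes and 0 to 9 of the 43 in set 2 (453 to 1409 and 0 to 1 with 1 library out, the 1 being Rfc3 without hairpin 2 replicate 4), and 27 to 959 genes and 0 to 1 of the 43 for the difference. Of the 43, 20 to 30 in set 1 and 10 to 27 in set 2 lay above 0, with 27 without hairpin 2 replicate 4.

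In set 1 the replicate numbers do not pair the libraries (r = 0.264, 0.000192 and 0.298), and the block called none of the 43. Signs changed under it for Cdt1 (-0.0517), Mcm2 (-0.0036) and Rfc3 (-0.0105), with no filter for Cdt1 (-0.0019), and in set 2 for Mcm4 (0.0009) with the block and without both replicate 4 libraries. With libraries left out, set 1 values ran from -0.24 to 0.23 for Cdt1, -0.0729 to 0.17 for Mcm2, -0.14 to 0.52 for Rfc3 and -0.37 to 0.0382 for Orc1. In set 2 they ran from -0.0409 to 0.14 for Pole, -0.30 to 0.0214 for Cdc6, -0.12 to 0.0013 for Mcm2, -0.17 to 0.14 for Mcm4 and -0.18 to 0.0096 for Pcna. Among the 43 genes and the lists around the pathway, the block changed no call in set 2 other than those given with the results. Calls on cell type markers that it changed are counted with those markers.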
